A study of Homo sapiens with 6 samples.

Results

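The 10 genes HSPA5, XBP1, DNAJB9, HERPUD1, SDF2L1, HYOU1, PDIA4, EDEM1, ATF6 and ERN1, which encode chaperones of the endoplasmic reticulum (ER) and components of the unfolded protein response (UPR), were compared between adriamycin-resistant and parent MDA-MB-231 cells. They were chosen by gene name as a set of known UPR sensors, regulators and targets, with earlier results of these data known. They are 10 of the 58735 genes in the count table. All 10 were among the 15242 genes with enough counts to be tested. MDA-MB-231 is an established triple-negative breast cancer (TNBC) cell line, and adriamycin (ADR, doxorubicin) is an anthracycline used against breast cancer. The parent group held 3 libraries of the unselected line, whose genotype is given as WT. The ADRr group held 3 libraries of the line whose genotype is given as ADR resistant. Per the methods of the study, ADRr cells were obtained by stepwise exposure to rising ADR concentrations, and resistant cells were then isolated as individual clones by limiting dilution. The ADRr libraries therefore stand for a selected clonal line, and the ADR dose, if any, in which the cells grew at harvest is not stated. Resistance, cloning, time in culture and the day of preparation cannot be told apart in this design. The series record speaks of 3 time points, which the sample labels do not name. The 3 libraries of each group were taken as replicates, and p-values measure the spread between libraries, which may be technical.

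Proteins that enter the secretory pathway are folded in the ER, where the Hsp70 chaperone BiP, encoded by HSPA5, binds unfolded chains and also the lumenal parts of the stress sensors. When unfolded protein accumulates, ATF6 is cut by Golgi proteases to release a transcription factor, IRE1α (encoded by ERN1) splices XBP1 mRNA so that it encodes an active transcription factor, and PERK (encoded by EIF2AK3) phosphorylates eIF2α, which lowers general translation while favouring that of ATF4. ATF6 and XBP1 act on genes for chaperones, disulfide isomerases and ER-associated degradation (ERAD), the route by which misfolded proteins are sent back to the cytosol and destroyed. The UPR is known to be active in many tumors, breast cancers included. Gene-level counts measure neither XBP1 splicing, ATF6 cleavage nor phosphorylation.

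Of the 10 genes, 7 rose in ADRr cells, 2 fell and 1 was not called, with a median log2 fold change of 0.76. A gene counted as called when edgeR's quasi-likelihood test gave an adjusted p no higher than 0.05 and the groups differed by at least 1.2-fold. By this rule 29.2% of all tested genes were called higher and 29.6% lower, so a call by itself was common in this comparison, and the median log2 fold change over all tested genes was -0.0061. The genes that rose were ERN1, DNAJB9, XBP1, HSPA5, HERPUD1, ATF6 and HYOU1, those that fell were EDEM1 and PDIA4, and SDF2L1 was not called. The libraries of the groups did not overlap for any of the 10 genes, with ADRr above parent for 7 and below it for 3. Among all tested genes, ADRr was above parent without overlap in 34.5% and below it in 34.7%.

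Several of these genes carry in their promoters the ER stress response element (ERSE), spelled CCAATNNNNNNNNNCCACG, or its shorter variant ERSE-II, which is ATTGG and CCACG with 1 base of any kind (N) between them. The CCAAT part is known as a binding sequence of NF-Y and the CCACG part as one of ATF6 and XBP1. Both were searched on both strands of 35116 RefSeq promoter windows (GRCh38.p14), each from 250 bases before to 50 bases after a start site. ERSE was found in 27 windows (0.0769%) and ERSE-II in 19 (0.0541%). All 10 genes had a window. ERSE was in those of HSPA5 and XBP1, and ERSE-II in those of HERPUD1, SDF2L1 and, at 2 places, HYOU1. The stretches around these elements are printed 5′ to 3′ on the strand of the gene, with the element in capitals, to show how the element looks in the genes of the set that carry it. An element on the opposite strand appears as its reverse complement, starting with CGTGG. The HSPA5 stretch is chr9:125241361-125241439 (minus strand), and its element starts 66 bases before the start site. The XBP1 stretch is chr22:28800573-28800651 (minus strand), with the element 52 bases before the start site. The stretches with ERSE-II are chr16:56931995-56932065 (HERPUD1, plus strand), chr22:21642084-21642154 (SDF2L1, plus strand) and chr11:119057244-119057420 (HYOU1, minus strand).
HSPA5: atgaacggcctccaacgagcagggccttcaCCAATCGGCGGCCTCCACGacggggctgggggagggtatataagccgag
XBP1: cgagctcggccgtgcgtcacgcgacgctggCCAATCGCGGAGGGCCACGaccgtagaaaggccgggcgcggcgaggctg
HERPUD1: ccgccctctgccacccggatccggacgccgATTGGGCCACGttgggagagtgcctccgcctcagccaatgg
SDF2L1: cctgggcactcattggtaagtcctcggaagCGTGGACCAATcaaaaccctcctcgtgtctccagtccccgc
HYOU1: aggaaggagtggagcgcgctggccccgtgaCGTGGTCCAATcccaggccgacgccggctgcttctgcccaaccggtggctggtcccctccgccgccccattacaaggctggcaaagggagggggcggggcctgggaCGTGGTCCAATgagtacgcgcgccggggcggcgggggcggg

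In HYOU1, the UPR element TGACGTGG, another sequence bound by XBP1 and ATF6, was also found, overlapping the first ERSE-II. It was present in 256 windows (0.729%) and in no window of the other 9 genes. The core CCACG alone was present in 38.1% of all windows and in those of 8 of the 10 genes, the exceptions being ATF6 and ERN1. A match is a description of the letters in a window. It does not show that a factor was bound there, and no match says only that these letters are not in this window.

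The libraries were of similar depth, with 15983985 to 18272314 counts each and normalization factors of 0.987 to 1.01, and 4.63 to 5.26% of counts were mitochondrial. The labelled cell type was checked with marker lists. Markers of mesenchymal TNBC lines (VIM, CD44, EGFR, MSN, AXL and SPARC) summed to 639 to 654 FPKM (fragments per kilobase of gene, scaled to the depth of the library) in parent and 639 to 642 in ADRr libraries, although SPARC was too low to be tested. Behind these like sums, EGFR (log2 fold change 1.39) and CD44 (0.80) rose while VIM (-0.56) and AXL (-0.62) fell. The hormone receptor genes ESR1 and PGR were too low to be tested. The luminal list summed to 14.3 to 17.1 FPKM in parent and 18.9 to 19.6 in ADRr libraries, with EPCAM higher (log2 fold change 1.10), CDH1 lower (-1.07) and GATA3 not called (-0.22). Each of the 6 leukocyte markers had at most 4 counts in any library. The endothelial list summed to 0.459 to 0.732 FPKM in parent and 1.24 to 1.39 in ADRr libraries, with VWF and CDH5 too low to be tested. Most of this sum was KDR, with a mean of 0.570 FPKM in parent and 1.21 in ADRr cells (log2 fold change 1.07, called higher). PECAM1 was not called (0.21). Neither the luminal nor the endothelial sums overlapped between the groups, and their part in the results was not tested. Since RNA was taken from bulk cultures, more RNA per cell and more cells with that RNA cannot be told apart.

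The sensor genes both rose. ERN1 (chr17:64039142-64130819) had 535, 599 and 547 normalized counts in parent replicates 1 to 3 and 2586, 2526 and 2570 in ADRr replicates 1 to 3. The groups were far apart and the libraries of each group close together. The mean rose from 561 ± 34.1 to 2561 ± 31.1 (SD, n = 3 each), or 4.57-fold, a log2 fold change of 2.19 (SE 0.064) with an adjusted p of 3.5e-18 by edgeR. ERN1 ranked 302 of the 15242 tested genes from the largest increase. ATF6 (chr1:161766294-161964070) had 1639, 1632 and 1521 normalized counts in parent and 2484, 2309 and 2472 in ADRr libraries. Its groups did not overlap, and its change was smaller than that of ERN1, with a 1.52-fold higher mean and a log2 fold change of 0.60 (SE 0.057, adjusted p = 4.2e-09 by edgeR). On the FPKM scale, which allows levels of different genes to be compared, ERN1 was at 0.255 ± 0.016 times the level of ATF6 in parent and 0.769 ± 0.023 times in ADRr cells (SD, n = 3 each). EIF2AK3, the gene of the other sensor PERK, had 528, 486 and 521 normalized counts in parent and 496, 447 and 442 in ADRr libraries. The groups overlapped and it was not called (log2 fold change -0.15, SE 0.085, adjusted p = 0.13 by edgeR).

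XBP1 (chr22:28794555-28800597), the transcription factor gene whose mRNA IRE1α splices, had 1628, 1448 and 1477 normalized counts in parent and 4121, 4045 and 3854 in ADRr libraries. Every ADRr library was above every parent library. Its mean rose from 1518 ± 96.6 to 4007 ± 138 (SD, n = 3 each), or 2.64-fold, with a log2 fold change of 1.40 (SE 0.058, adjusted p = 1.7e-15 by edgeR). These counts cover spliced and unspliced mRNA together. The pseudogene XBP1P1 had 0 to 6 counts per library.

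HSPA5 (chr9:125234853-125241330) had the highest level of the set in both groups. It had 15691, 16778 and 15343 normalized counts in parent libraries and 35257, 34546 and 35334 in ADRr libraries. The groups did not overlap, and the ADRr libraries differed from each other by a CV of 1.24%. The mean rose from 15937 ± 748 to 35046 ± 434 (SD, n = 3 each), or 2.20-fold, with a log2 fold change of 1.14 (SE 0.045, adjusted p = 7.4e-16 by edgeR). HYOU1 (chr11:119044189-119057202) encodes a large Hsp70-related ER chaperone that also acts as a nucleotide exchange factor for BiP. It had 6737, 6509 and 6845 normalized counts in parent and 8919, 8851 and 9144 in ADRr libraries. It rose 1.34-fold, with no overlap of the groups and a log2 fold change of 0.42 (SE 0.046, adjusted p = 3.6e-08 by edgeR).

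The J-domain co-chaperone gene DNAJB9 (chr7:108569568-108574850), whose product ERdj4 works with BiP and in ERAD, had 321, 344 and 314 normalized counts in parent libraries. In ADRr libraries it had 1015, 920 and 1020. Its mean rose 3.02-fold, the largest increase after ERN1 in the set, with a log2 fold change of 1.60 (SE 0.081, adjusted p = 6.4e-14 by edgeR). From gene start to gene end, DNAJB9 overlaps PNPLA8 by 99 bases and THAP5 by 183 bases on the opposite strand. Overlap of exons was not measured, and the strand setting of the counting is not given in the sources used here. PNPLA8 (log2 fold change 0.57) and THAP5 (0.35) also rose, by less than DNAJB9. SDF2L1 (chr22:21642261-21644298), which encodes a partner of ER J-domain proteins, had 320, 275 and 303 normalized counts in parent and 259, 252 and 247 in ADRr libraries. Its groups did not overlap and its adjusted p was 0.040 by edgeR, but the log2 fold change of -0.24 (SE 0.10) was below the fold threshold. Without parent replicate 2, the lowest of the parent libraries, it was called lower (log2 fold change -0.31, adjusted p = 0.014). Leaving out another library brought the value as near to 0 as -0.20.

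PDIA4 (chr7:149003062-149028641), the disulfide isomerase ERp72, had 7121, 6986 and 7438 normalized counts in parent and 5828, 5828 and 6009 in ADRr libraries. The groups did not overlap, and the mean was 1.22-fold lower in ADRr cells (log2 fold change -0.29, SE 0.047, adjusted p = 1.4e-05 by edgeR). This lay just past the fold threshold: scaled by library size alone, the log2 fold change was -0.26 and PDIA4 was not called.

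The ERAD genes moved in opposite directions. HERPUD1 (chr16:56932048-56944863), a membrane protein that assembles the HRD1 ubiquitin ligase complex, had 665, 738 and 759 normalized counts in parent and 1378, 1397 and 1290 in ADRr libraries. It rose 1.88-fold with no overlap of the groups (log2 fold change 0.91, SE 0.070, adjusted p = 9.2e-11 by edgeR). EDEM1 (chr3:5187646-5219957), a lectin that hands misfolded glycoproteins to ERAD, had 1573, 1735 and 1430 normalized counts in parent and 929, 818 and 830 in ADRr libraries. It was 1.84-fold lower with no overlap (log2 fold change -0.88, SE 0.074, adjusted p = 5.4e-10 by edgeR). The ratio of DNAJB9 to EDEM1 on the FPKM scale went from 0.494 ± 0.026 to 2.74 ± 0.17 (SD, n = 3 each).

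**Figure D1:**
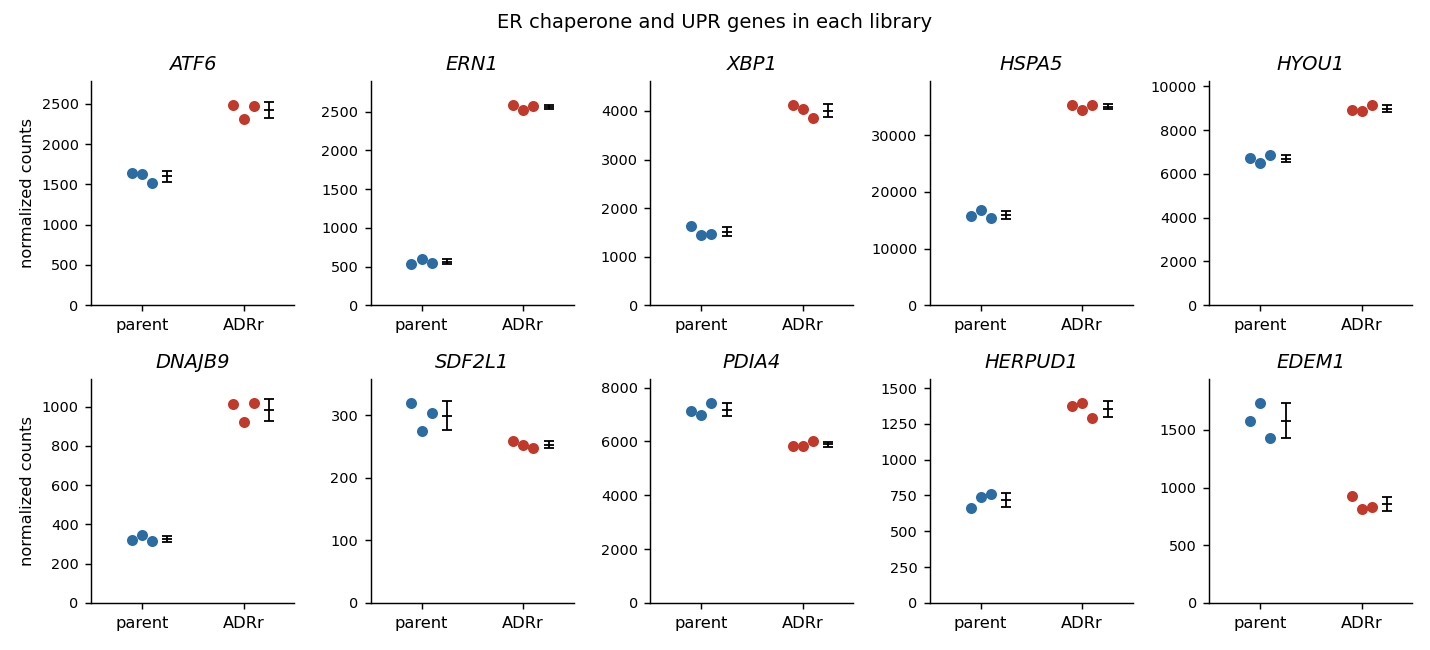
Each panel plots 1 gene, with normalized counts on a linear vertical axis from 0 and 1 point for each library of the parent (blue) and ADRr (red) cells. The black bar is the mean ± SD (n = 3). The groups do not overlap in any panel, with ADRr above parent in 7 and below it in 3 (SDF2L1, PDIA4 and EDEM1). Of all tested genes, 34.5% were above and 34.7% below without overlap.

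Replicates were close to each other for these genes. The CV between the 3 libraries of a group ranged from 2.56 to 9.67% in parent (median 5.46%) and from 1.21 to 7.05% in ADRr cells (median 2.84%). No single library led the set: parent replicates 1, 2 and 3 were the highest of their group for 3, 4 and 3 genes, and ADRr replicates 1, 2 and 3 for 5, 1 and 4 genes. An exact permutation test on 1 gene could not reach a p below 0.1 with 3 libraries in each group, so the adjusted p-values rest on the fit over all genes.

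The order of the levels changed. In parent cells HSPA5 (233 FPKM) was followed by PDIA4 (125), HYOU1 (49.8), XBP1 (28.7), SDF2L1 (15.6), EDEM1 (13.4), ATF6 (11.6), HERPUD1 (7.99), DNAJB9 (6.57) and ERN1 (2.95). Of the neighbours in this order, SDF2L1 and EDEM1 overlapped between libraries. In ADRr cells the order was HSPA5 (514 FPKM), PDIA4 (103), XBP1 (75.9), HYOU1 (66.9), DNAJB9 (19.9), ATF6 (17.6), HERPUD1 (15.1), ERN1 (13.5), SDF2L1 (13.2) and EDEM1 (7.29), where ERN1 and SDF2L1 overlapped. HSPA5 and PDIA4 kept the first 2 places, XBP1 passed HYOU1, and EDEM1 moved to the last place that ERN1 had held. In ADRr cells HSPA5 was at 4.99 ± 0.073 times the level of PDIA4, against 1.86 ± 0.14 times in parent cells (SD, n = 3 each).

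Because ADRr cells are a clonal line, each gene was set beside the 50 nearest tested genes on its chromosome. EDEM1 lay among genes that were mostly lower: 36 of its 50 neighbours were called lower and 3 higher, over 9.54 Mb, with a median log2 fold change of -0.63. The median was -0.61 over the 20 nearest and -0.46 over the 100 nearest genes. Relative to the 50 neighbours, EDEM1 was lower by a log2 of -0.25 instead of -0.88. For PDIA4, 22 neighbours were called lower and 11 higher, with a median of -0.28, close to its own log2 fold change of -0.29. That median depended on the window, at -0.13 for 20 and -0.092 for 100 genes. HYOU1 rose although its neighbours had a median of -0.18, with 19 called lower and 8 higher. The medians around HSPA5 (0.19), DNAJB9 (0.18) and XBP1 (0.16) were above 0, and after subtraction these genes had log2 fold changes of 0.95, 1.41 and 1.24. Around ERN1 (0.061), HERPUD1 (0.023), SDF2L1 (0.0073) and ATF6 (-0.0046) the medians were closer to 0. No copy number was measured, and its part in these differences was not tested.

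**Figure D2:**
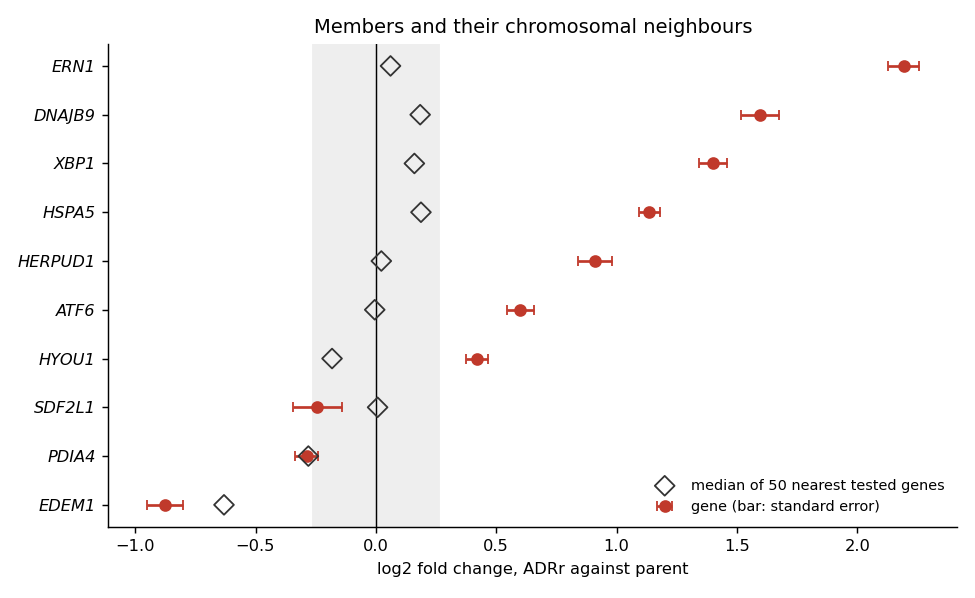
The log2 fold change of each gene (red points, bars ± 1 standard error derived from the edgeR fit) is plotted on the horizontal axis beside the median of its 50 nearest tested genes (open diamonds), and the grey band marks changes below 1.2-fold. The diamond lies at -0.63 for EDEM1 and at -0.28 for PDIA4, where it coincides with the point of the gene, while that of ERN1 lies at 0.061.

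The other genes of the ER were described with 10 lists of 184 genes, of which 179 were tested. Chromosomal neighbours were examined for the 10 genes of the set only, so the part of chromosomal position in the changes of list genes was not tested. Over all lists 45 genes (25.1%) rose and 63 (35.2%) fell, with a median log2 fold change of -0.030. Of the 24 ER chaperones and co-chaperones outside the set, 7 (29.2%) rose and 13 (54.2%) fell (median -0.29), beside 29.2% and 29.6% of all tested genes. The largest increases were those of HSPA13, an ER Hsp70-like protein, which rose 2.38-fold (log2 fold change 1.25, adjusted p = 4.2e-13 by edgeR), and DNAJC3, a co-chaperone of BiP, which rose 1.52-fold (0.60, adjusted p = 7.9e-08). The largest decreases among those with enough counts were in the prolyl isomerases FKBP7 (log2 fold change -1.45) and FKBP14 (-1.09). HSP90B1 (GRP94), the Hsp90 of the ER, had 15334, 16502 and 14486 normalized counts in parent and 12586, 11671 and 12920 in ADRr libraries. It fell without overlap of the groups (log2 fold change -0.32, SE 0.052, adjusted p = 1.3e-05 by edgeR). CALR, the lectin chaperone calreticulin, had 21218, 21392 and 21637 normalized counts in parent and 14964, 15201 and 15331 in ADRr libraries, and fell as well (-0.50, SE 0.042, adjusted p = 5.6e-10). Calnexin, encoded by CANX, rose (0.40). Thus HSPA5 was at 1.24 ± 0.027 times the FPKM level of HSP90B1 in parent and at 3.40 ± 0.14 times in ADRr cells (SD, n = 3 each).

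Of the 17 tested disulfide isomerases and oxidases, 4 (23.5%) rose and 5 (29.4%) fell (median -0.030), beside 29.2% and 29.6% of all tested genes. The transmembrane isomerase TMX3 (log2 fold change 0.99), the sulfhydryl oxidase QSOX1 (0.58), PDIA5 (0.39) and PDIA6 (0.28) rose, while TMX1, which was 2.01-fold lower, TMX4 (-0.87), the oxidase ERO1A (-0.80), TXNDC5 (-0.68) and PDIA3 (-0.52) fell, the latter like PDIA4. PDIA2 and AGR2 were too low to be tested. In ERAD, 9 of 25 tested genes (36%) rose and 1 (4%) fell (median 0.15). The ubiquitin-conjugating enzyme gene UBE2J1 rose 1.85-fold (log2 fold change 0.89) and AUP1, which recruits such enzymes to lipid droplets and the ER, rose by 0.67. The gene that fell was VCP, the ATPase that extracts proteins from the ER membrane, from 10163 ± 65.5 to 4247 ± 81.6 normalized counts (SD, n = 3 each; log2 fold change -1.26, adjusted p = 2.3e-16 by edgeR). Without parent replicate 2, 2 ERAD genes were lower.

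Among genes for entry into and exit from the ER, more fell than rose, where 29.2% of all tested genes were higher and 29.6% lower. Of the 23 translocon and signal peptide processing genes, 4 (17.4%) rose and 8 (34.8%) fell (median -0.0097). The paralogous signal peptidase subunits moved apart, with SEC11C up 3.74-fold (log2 fold change 1.90) and SEC11A down (-0.90). The chromosomal neighbours of both were not examined. SEC61A2 (0.78), SEC63 (0.61) and SEC61B (0.30) also rose, and SRP72 of the signal recognition particle fell (-0.73). Of the 21 N-glycosylation genes, 1 (4.76%) rose and 8 (38.1%) fell (median -0.15). The increase was that of GFPT1, the first enzyme of the hexosamine pathway that supplies the sugar donor. It went from 1889 ± 81.1 to 7490 ± 127 normalized counts (SD, n = 3 each), 3.97-fold. GFPT1 is known as a target of XBP1, whose part in this increase was not tested. The oligosaccharyltransferase subunit STT3B (-0.97) and the mannosyltransferase ALG12 (-0.88) fell. Without ADRr replicate 2, 2 genes of this list were higher. Of the 25 genes for transport from ER to Golgi, 3 (12%) rose and 13 (52%) fell (median -0.30). The increases were in SEC23B (0.45), MCFD2 (0.37) and BET1 (0.28). Among the decreases were KDELR3 (-1.18), a receptor that returns chaperones to the ER, and the cargo receptor TMED10 (-1.02).

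Other regulators of the UPR were mostly lower. Of 16 tested sensors, proteases and regulators outside the set, 2 (12.5%) rose and 9 (56.25%) fell (median -0.37), beside 29.2% and 29.6% of all tested genes. ATF6B, the paralog of ATF6, had 2769, 2559 and 2712 normalized counts in parent and 1769, 1668 and 1781 in ADRr libraries. Unlike ATF6, it fell (log2 fold change -0.62, SE 0.056, adjusted p = 1.5e-09 by edgeR). CREB3L2, another membrane-bound transcription factor, fell by 0.58 on the log2 scale. The genes that rose were NFYC (0.44) and NFYA (0.27), subunits of NF-Y, and leaving out parent replicate 3 or ADRr replicate 1 left 1 gene called higher. The NF-Y genes did not move together: NFYB, which encodes another subunit, was called lower (log2 fold change -0.53, adjusted p = 8.4e-06 by edgeR).

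The PERK branch list had the highest median of the 10 lists. It holds genes downstream of PERK and ATF4, and also ATF4 itself, EIF2S1 and PPP1R15B. Of 12 tested genes, 11 (91.7%) rose and none was called lower (median 2.09), beside 29.2% and 29.6% of all tested genes. ATF4 itself, a translationally controlled transcription factor, rose from 3833 ± 149 to 4967 ± 35.3 normalized counts (log2 fold change 0.37, adjusted p = 6.4e-07 by edgeR). DDIT3, which encodes the stress-induced factor CHOP, had 164, 207 and 190 normalized counts in parent and 1065, 1037 and 1011 in ADRr libraries, a 5.56-fold increase (2.47, adjusted p = 1.9e-16). The pseudokinase gene TRIB3 rose 6.86-fold (2.78) and the stress-induced nuclear protein gene NUPR1 rose 7.87-fold (2.98). The gene not called was EIF2S1, which encodes eIF2α itself (log2 fold change -0.26, adjusted p = 4.5e-04 by edgeR). It was just under the fold threshold: 1 gene was lower by p alone, DESeq2 called 0 lower, and without parent replicate 1, parent replicate 3 or ADRr replicate 3 the count was 1. Most of these genes are also induced by other kinases of eIF2α, so the list is not specific to the ER.

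Of 9 ER calcium genes 1 (11.1%) rose and 2 (22.2%) fell, beside 29.2% and 29.6% of all tested genes. ITPR3 rose (log2 fold change 0.58), and STIM2 (-1.35) and TMCO1 (-0.27) fell. Without ADRr replicate 2, 1 was lower. Of the 7 ER-phagy receptors 3 (42.9%) rose, namely RETREG1 (2.18), CALCOCO1 (0.67) and CCPG1 (0.38). The other 4 (57.1%) fell, with TEX264 (-0.76) and ATL3 (-0.71) the lowest.

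**Figure D3:**
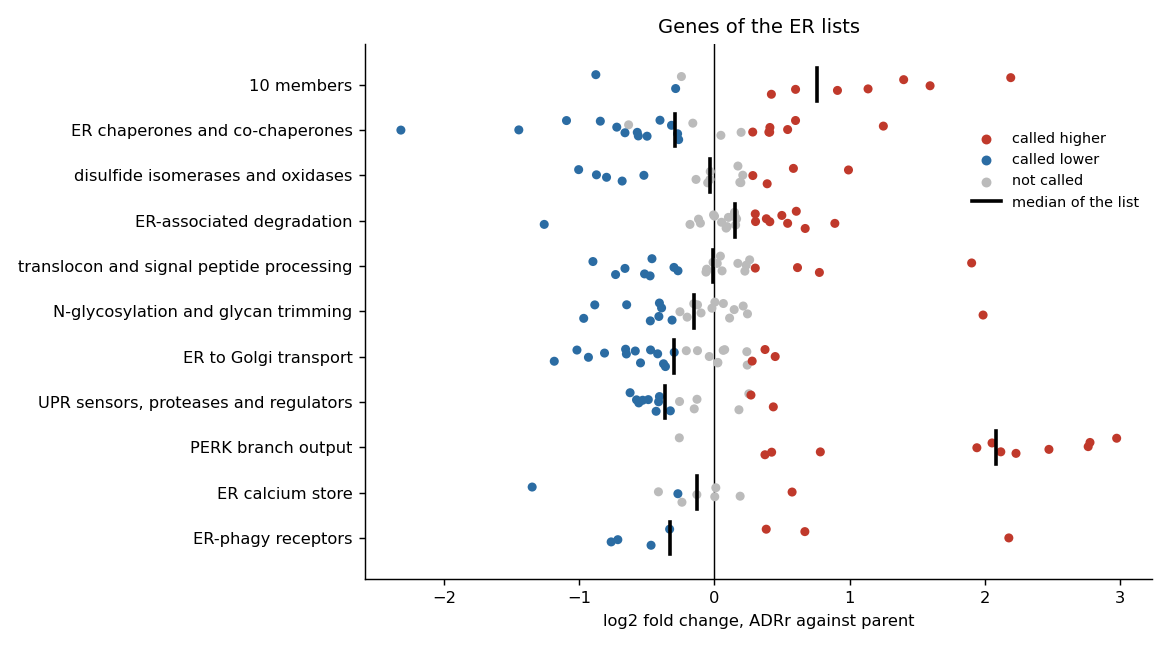
Each point is a tested gene, placed by its log2 fold change (horizontal axis) in the row of its list, and coloured red for called higher, blue for called lower and grey for not called. The black bar is the median of the list. The bar lies at 0.76 for the 10 genes of the set and at 2.09 for the PERK branch output, and at or below 0 in the other lists except ERAD (0.15).

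The composition of the ER folding genes was summed over 48 genes, namely the 2 lists of chaperones and isomerases with HSPA5, HYOU1, PDIA4, DNAJB9 and SDF2L1. Their FPKM summed to 2371 ± 8.65 in parent and 2484 ± 30.5 in ADRr cells (SD, n = 3 each), a ratio of 1.05. The ranges, 2361 to 2377 and 2452 to 2513, did not overlap. HSPA5 made up 9.83 ± 0.43% of the sum in parent and 20.7 ± 0.10% in ADRr cells. Without HSPA5 the sum was lower in ADRr cells, at 1969 ± 23.2 against 2138 ± 6.12 FPKM. These sums compare RNA levels and carry no test.

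**Figure D4:**
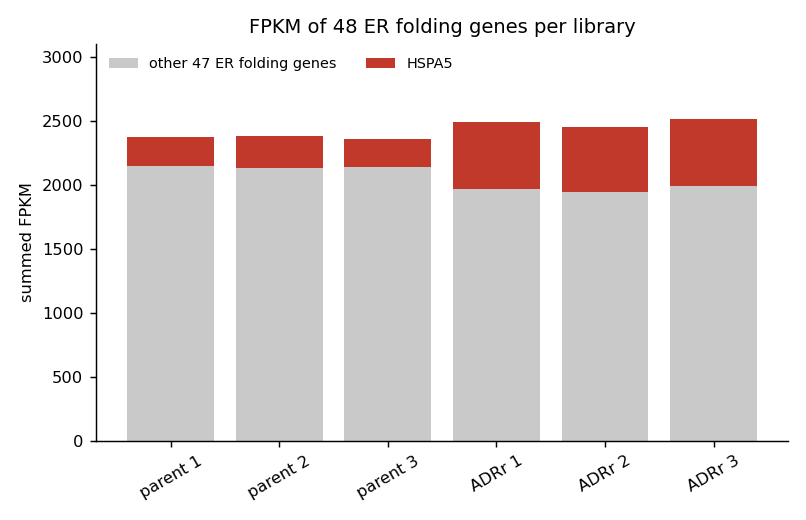
Stacked bars give, for each library, the FPKM of HSPA5 (red) on top of the summed FPKM of the other ER folding genes (grey), on a linear axis from 0. The whole bars reach 2361 to 2377 in parent and 2452 to 2513 in ADRr libraries, while the HSPA5 part goes from 9.83% to 20.7% on average.

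The elements printed above were then set beside the changes of every tested gene whose window held one. Among the 16 tested genes with ERSE, 7 (43.8%) rose, 4 (25%) fell and 5 were not called, beside 29.8% and 31.8% of the 10453 tested genes whose windows lacked it. Beside XBP1 and HSPA5, the genes that rose were FICD, whose product modifies BiP (from 246 ± 24.5 to 566 ± 32.1 normalized counts), CANX (0.40), SERP1 (0.34), EIF2A (0.33) and PDIA6 (0.28). SERP1 and EIF2A start on opposite strands and share the same element, so the shares count it for both genes. HSP90B1 (-0.32), CALR (-0.50), CRELD2 (-0.56) and ALG12 (-0.88) fell. The stretches of 3 of these are printed for comparison with HSPA5 and XBP1, as abundant or ER-resident products with the same element and the opposite direction. They are chr12:103930186-103930369 (HSP90B1, plus strand, with 2 elements), chr19:12938359-12938432 (CALR, plus strand) and chr22:49918524-49918602 (CRELD2, plus strand), and the last element is shared with ALG12, which starts on the other strand.
HSP90B1: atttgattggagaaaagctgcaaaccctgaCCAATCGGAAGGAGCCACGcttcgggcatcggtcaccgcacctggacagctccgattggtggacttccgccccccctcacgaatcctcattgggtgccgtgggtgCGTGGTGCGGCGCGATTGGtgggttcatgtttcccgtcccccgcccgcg
CALR: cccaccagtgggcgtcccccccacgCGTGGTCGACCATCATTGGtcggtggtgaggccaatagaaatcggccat
CRELD2: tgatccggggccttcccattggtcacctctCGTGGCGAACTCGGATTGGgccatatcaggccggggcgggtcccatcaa

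Among the 14 tested genes with ERSE-II, 3 rose (NAV2, 0.97; HERPUD1, 0.91; HYOU1, 0.42), 7 fell and 4 were not called, SDF2L1 among them. This was 21.4% higher and 50% lower, against 29.8% and 31.8% of the 10455 tested genes without it. These shares describe few genes and carry no test. The largest decreases were in SHCBP1 (log2 fold change -1.22) and CNKSR1 (-1.15). GYS1 (-0.41) and RUVBL2 (-0.72), which also fell, start on opposite strands and share the same element. A window with ERSE or ERSE-II was thus found beside changes in both directions. The UPR element was in windows of 119 tested genes, of which 24.4% were higher and 42.0% lower. Of the 10350 tested genes without it, 29.8% were higher and 31.7% lower, and these shares carry no test either. The increases of ERN1, DNAJB9 and ATF6 were in genes whose windows held none of ERSE, ERSE-II and the UPR element, as were the decreases of EDEM1 and PDIA4.

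**Figure D5:**
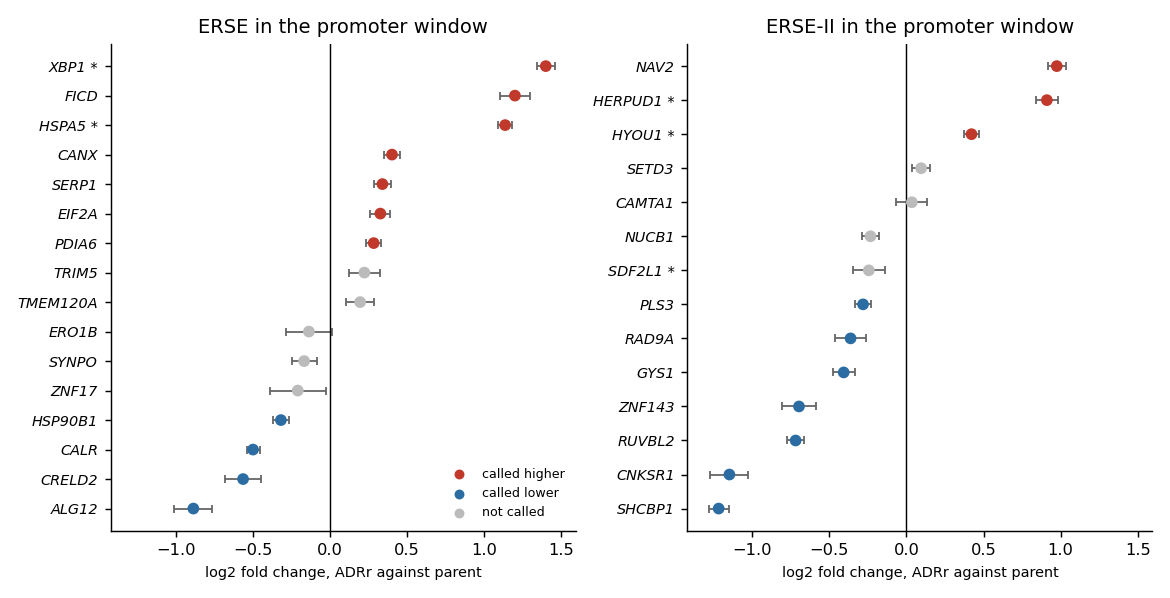
Log2 fold changes (horizontal axis, bars ± 1 standard error) of the tested genes with ERSE (left) or ERSE-II (right) in the promoter window, with red for called higher, blue for called lower, grey for not called and an asterisk at genes of the set. The ERSE genes run from XBP1 (1.40) to ALG12 (-0.88) and the ERSE-II genes from NAV2 (0.97) to SHCBP1 (-1.22).

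The genes whose pattern over the 6 libraries was most like that of HSPA5 and XBP1 were found by the root mean square difference of log2 CPM (counts scaled to the library total), each relative to the parent mean, among 10868 tested genes. For HSPA5 these were NPC1 (difference 0.0149), a lysosomal cholesterol transporter, the myelin basic protein gene MBP (0.0234) and the autophagy receptor OPTN (0.0241). For XBP1 they were TNFAIP3 (0.0422), an inhibitor of NF-κB signaling, the Notch ligand gene JAG1 (0.0485) and EPG5 (0.0529), an autophagy gene. With 3 libraries in each group, this measure reflects mainly the size of the change. The chromosomal neighbours of the genes found were not examined, and a shared function was not tested.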

How the data were processed

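RNA from 3 parent and 3 ADRr samples of MDA-MB-231 was sequenced by the authors. Per their methods, polyadenylated RNA was selected, the CORALL kit was used for library preparation, and paired-end reads came from an Illumina NovaSeq instrument. The sample records describe another kit and another amount of RNA. The submitters' processing notes name fastp, HISAT2 2.0.5, featureCounts 1.5.0-p3, DESeq2 1.20.0 and GRCh38. The strandedness is not given in the sources used here. The authors deposited raw whole-number counts for each gene and the FPKM values derived from these counts. All 58735 gene identifiers were in GENCODE 29, from which positions and overlaps were taken. No column was left without a sample.

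Counts were compared in R 4.3.3 with edgeR 4.0.16 (TMM, filterByExpr, quasi-likelihood test, Benjamini-Hochberg over 15242 genes). Normalized counts are counts scaled to the TMM library size. The SE of a log2 fold change is not an edgeR output. It was computed as the absolute log2 fold change divided by the square root of the F statistic of the test. Where a library had no count, up to 3 counts (0.164 to 0.188 CPM) could have been missed, for counting error only. FPKM served for levels between genes and for sums. One list gene whose name the table holds as a date was matched by identifier.

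The 10 genes and the lists were chosen with earlier results of these data known. From each list, the 2 strongest increases and the 2 strongest decreases among called genes were named, provided that the higher group averaged 100 normalized counts or more, together with HSP90B1, CALR, EIF2AK3, ATF4, DDIT3 and ATF6B and the 3 genes closest to HSPA5 and to XBP1. Other list genes, and genes named for a promoter element, were named after their values were seen. Of the tested genes, 10469 (68.7%) matched a RefSeq promoter window by symbol, so the comparison of genes with and without an element, which leaves out the rest, is void as a check and is given as a description. Protein sequences were not used here.

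The alternatives were DESeq2 size factors, library size alone, DESeq2 1.42.0, the fit without a filter or with a minimum of 10 counts per library, limma-trend (limma 3.58.1) on log2(FPKM + 1) or log2(FPKM + 0.1) for genes averaging 0.5 FPKM or more, log2(FPKM + 1) also without this filter, a replicate block, leaving out 1 library at a time, calls by adjusted p with no fold threshold, a log2 fold threshold of 1.2 either way, and 20 or 100 neighbours.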

Additional observations from a re-analysis of the deposited data

How the results depend on the processing

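Depth was not limiting for the 10 genes, the lowest of which had 241 counts in a library. Over 15 other fits, which changed the normalization, tool, filter, unit or libraries, the 7 increases and the decrease of EDEM1 kept their direction and their call, with log2 fold changes of 1.88 to 2.24 for ERN1, 1.46 to 1.65 for DNAJB9, 1.36 to 1.45 for XBP1, 1.11 to 1.17 for HSPA5, 0.84 to 0.95 for HERPUD1, 0.56 to 0.64 for ATF6, 0.40 to 0.45 for HYOU1 and -0.95 to -0.79 for EDEM1. With library size alone PDIA4 (-0.26) was not called and 1 gene of the set was lower. By the adjusted p alone SDF2L1 (-0.24) was lower, and with each library left out in turn it ranged from -0.31 to -0.20. Leaving out a library gave 7 genes of the set higher in each fit and 2 to 3 lower, and 4297 to 4483 higher and 4375 to 4610 lower among all genes. With the threshold set at 1.2 on the log2 scale, 1114 genes were higher and 972 lower, 12 and 4 of them in the lists, and of the set 3 were higher and 0 lower, so that HSPA5 (1.14), HERPUD1 (0.91), ATF6 (0.60), HYOU1 (0.42), PDIA4 (-0.29) and EDEM1 (-0.88) were not called. The threshold alone makes this difference. By an unadjusted p under 0.05 from edgeR with no fold threshold, 3 genes of the set were lower.

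Relative to the median of 50 neighbours, the log2 fold changes moved to 0.95 for HSPA5, 1.24 for XBP1, 1.41 for DNAJB9, 0.60 for HYOU1, -0.0061 for PDIA4 and -0.25 for EDEM1. With 20 neighbours the medians moved to 0.0092 for XBP1, 0.27 for DNAJB9, 0.16 for HERPUD1, -0.063 for SDF2L1, -0.096 for HYOU1, -0.13 for PDIA4, 0.025 for ATF6 and -0.061 for ERN1. With 100 they moved to 0.074 for HSPA5, 0.033 for DNAJB9, 0.0043 for HERPUD1, -0.11 for HYOU1, -0.092 for PDIA4, -0.46 for EDEM1, 0.097 for ATF6 and -0.059 for ERN1. The cause was not tested.

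The replicate numbers did not pair the libraries: the deviations of same-numbered libraries from their group means correlated at 0.0074, -0.021 and -0.046. With the number as a replicate block, 4406 genes were higher and 4464 lower, and the set had 7 higher and 2 lower, with ERN1 at 2.19 and HSPA5 at 1.14.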
